A study of Mus musculus with 8 samples.

Results

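Of the 21959 genes in a table of oocyte transcript levels, 52 encode translation initiation factors or their closest partners, and their RNA was followed here in oocytes with and without Rbpms2. They were taken by symbol, as all genes whose name starts with Eif followed by a digit from 1 to 6. Before the exclusions 55 genes matched, and 3 (Eif4enif1, Eif4e1b and Eif4ebp1) were left out of the members by name. The rule itself reads names and no measured value. The table held oocytes of mouse ovaries at postnatal day 1 in 4 wild-type libraries and 4 libraries from mice in which Rbpms2, an RNA-binding protein gene, was knocked out. Each library came from a tube of 5 to 10 putative primordial oocytes picked by mouth pipette after the ovaries were dissociated with collagenase and trypsin, and the RNA was amplified for 18 cycles. The labels give neither the deleted part of Rbpms2, nor the strain, nor whether tubes came from separate animals. Every p-value therefore reflects variation from tube to tube, part of which may be technical.

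Translation starts when a ternary complex of eIF2, GTP and the initiator tRNA joins the small ribosomal subunit together with eIF1, eIF1A, eIF3 and eIF5. The eIF4F complex (the cap-binding protein eIF4E, the scaffold eIF4G and the RNA helicase eIF4A) brings the mRNA, the subunit scans to the start codon, and eIF5B joins the large subunit. Kinases that phosphorylate eIF2 alpha block its exchange factor eIF2B and lower initiation throughout the cell, while eIF4E-binding proteins hold eIF4E back until mTOR signalling releases it. Oocytes store mRNAs that are translated long after they are made, and they hold them silent in part through proteins that occupy the cap.

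The libraries held 8310774 to 11926922 reads in the listed genes in wild type and 9554090 to 14526326 in knockout, as recovered from the steps of the FPKM values (fragments per kilobase of exon, scaled to depth). Reads were amplified without molecular identifiers, so precision from depth covers counting error only. Rbpms2 itself stood at 158.1, 167.4, 135.8 and 212.8 FPKM in wild-type replicates 1 to 4 and at 38.4, 58.3, 31.0 and 42.5 FPKM in knockout replicates 1 to 4. Each knockout library was thus below each wild-type library, without reaching 0. Oocyte markers averaged 8.29 to 8.85 on the log2(FPKM + 1) scale over 10 genes in wild type and 4.48 to 6.01 in knockout, but the list did not move as a group: 8 of its genes were lower in knockout and 2 were higher. Those 2 were the germ cell genes Ddx4, at 54.0 to 84.2 FPKM in wild type and 108.0 to 332.0 FPKM in knockout, and Dazl, at 184.5 to 315.5 and 379.1 to 655.7 FPKM. Markers of other ovarian cells were uneven between tubes, with stromal markers (7 genes) at 0.49 to 3.15 in wild type and 0.73 to 5.20 in knockout, immune markers (7 genes) at 0.43 to 0.76 and 0.98 to 4.16, granulosa markers (8 genes) at 0.20 to 2.21 and 0.83 to 4.25, and none of these genes at 0 in all libraries. Endothelial markers (6 genes) reached 4.59 in knockout replicate 1 and at most 0.73 elsewhere, erythroid markers (6 genes) ranged from 1.35 to 7.62 in wild type and from 2.83 to 6.53 in knockout, and surface epithelial markers (5 genes) from 0.51 to 1.88 and from 0.31 to 4.26. In pooled cells, fewer cells of a type and less RNA per cell cannot be told apart.

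Initiation factor genes changed in both directions and about as often as other genes. Of the 52 members, 49 reached 1 FPKM in at least 4 libraries and were tested with limma on log2(FPKM + 1), with p-values adjusted over all 11235 tested genes and a call at an adjusted p under 0.05. In knockout 11 were higher, 11 were lower and 27 did not pass. That is 22.4% of tested members higher, against 17.7% of all tested genes, and 22.4% lower, against 25.6%. Of all tested genes 43.4% were called in either direction, and of the members 44.9%. The genotypes' libraries did not overlap for 17 tested members (34.7%), against 39.9% of all tested genes. The median log2 fold change was -0.12 over the members and -0.12 over all tested genes. These shares are near the background, so the results below are about single factors and not about the set.

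Which factors were called depended in part on whether a trend with base composition was removed, and on scaling. The 11 members that rose had a median transcript GC content of 42.5% (lowest 40.0%, highest 52.9%), and the 11 that fell had 50.1% (39.7% to 57.9%). The median was 49.8% over the 49 tested members and 49.7% over all tested genes, so the members that fell were near it. Across the 49 members the log2 fold change and transcript GC had a Spearman correlation of -0.47, and across 11220 genes it was -0.37. Genes share the libraries, so this is a description. Whether the trend comes from library preparation or from the oocytes was not tested, so removing it may also remove real differences. After each library's trend against GC was removed (the GC correction), 6 members were higher and 8 lower, that is 12.2% and 16.3%, against 14.9% and 23.6% of all genes. Of the members that rose 4 stayed called higher, of those that fell 7 stayed called lower, and none changed direction. Median-of-ratios scaling moved the median of all genes up by 0.13 and quantile scaling by 0.17 on the log2 scale. Under median-of-ratios scaling 13 members were higher and 5 lower, so 72.2% of called members were higher in place of 50%. This scaling moved the median of all genes up too, and the matching share of all genes is not given. The shift is therefore not a result about the members. Without that scaling, 1991 of all tested genes were called higher and 2880 lower. Without wild-type replicate 4, 8 members were higher and 7 lower. Across the fits that left out 1 library, 1465 to 1792 of all tested genes were higher and 1995 to 3010 lower. A further fit left out the 3 libraries richest in stromal, granulosa and surface epithelial markers (wild-type replicate 3, knockout replicates 2 and 3). These are called below the 3 libraries rich in somatic markers. Without them 11 were higher and 11 lower, but these were not all the same members as with all libraries. Eif2a and Eif3a (higher) and Eif4e3 (lower) lost their calls, and others gained one. The matching counts of all genes are not given. Knockout replicate 1, highest in endothelial markers (4.59), and wild-type replicate 1, with erythroid markers at 7.05, were kept, so other somatic RNA remained. Of all members, 7 were called in the same direction in each of the 21 alternative fits: Eif2s1, Eif3e, Eif3i and Eif4a2 higher, and Eif2s3x, Eif3f and Eif4g1 lower.

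**Figure D1:**
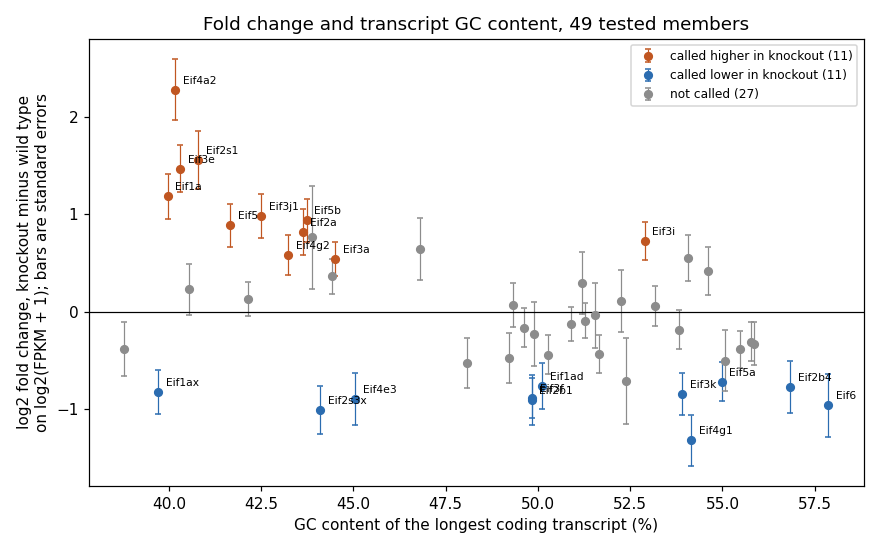
Log2 fold change of each of the 49 tested members (knockout minus wild type on log2(FPKM + 1), bars are standard errors) against the GC content of its longest coding transcript in percent. Members called higher lie mostly at low GC (median 42.5%), Eif3i at 52.9% being apart from them, while Eif1ax, Eif2s3x and Eif4e3 were called lower at low GC.

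Levels spanned a wide range between factors. Mean FPKM, a level per length, ran in wild type from 0 for Eif2s3y to 513.1 for Eif5a, with 12 members over 100 FPKM and 9 under 10 FPKM. The highest 3 in wild type were Eif5a, Eif1 and Eif1b, and the same genes led in knockout in the order Eif1, Eif1b and Eif5a. Together the members made up 1.07% to 1.31% of the FPKM total in wild type and 0.97% to 1.33% in knockout. These ranges overlap.

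**Figure D2:**
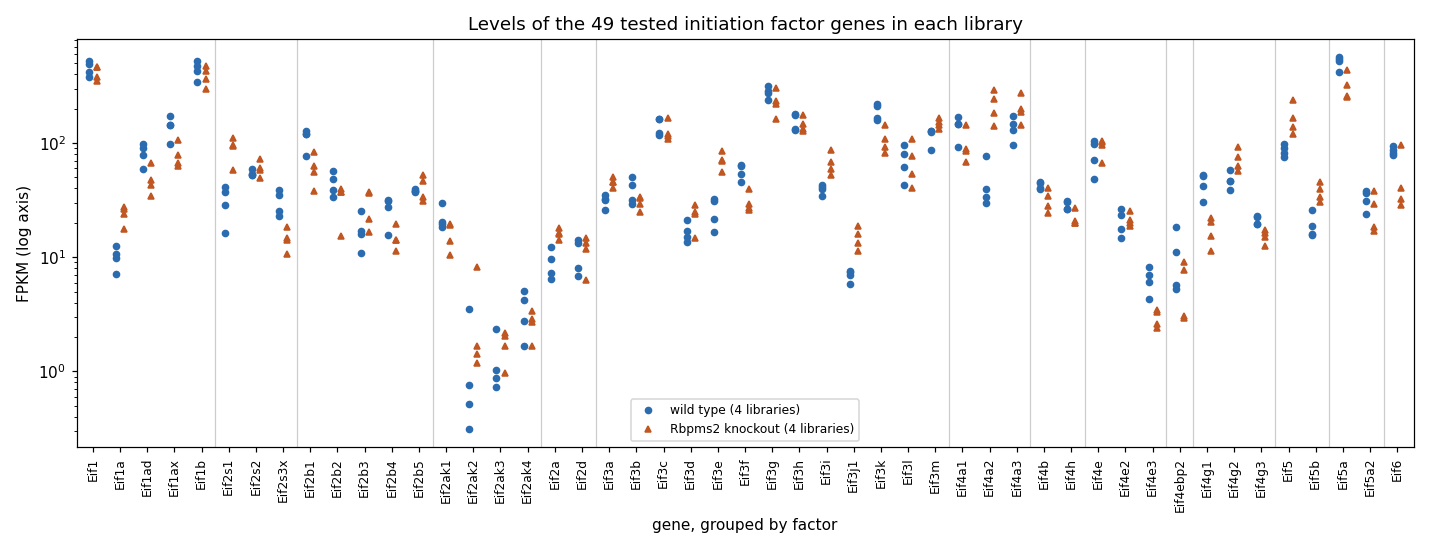
FPKM on a log axis of the 49 tested members in 4 wild-type libraries (circles) and 4 Rbpms2 knockout libraries (triangles), grouped by factor. Levels run from 0.315 FPKM for Eif2ak2 in wild-type replicate 2 to 563.2 FPKM for Eif5a in the same library, and the libraries of the genotypes stand apart for Eif4a2, Eif2s1, Eif3e and Eif4g1.

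Neither gene for the start-codon factor eIF1 passed the test, while the 2 genes for eIF1A were called in opposite directions. Eif1, whose protein keeps the scanning ribosome from settling on wrong start codons, had 528.5, 491.9, 378.1 and 419.7 FPKM in wild-type replicates 1 to 4 and 352.8, 461.2, 383.1 and 468.1 FPKM in knockout. Its paralog Eif1b (81.3% identical over 342 coding bases) had 428.8, 478.0, 341.7 and 526.0 FPKM in wild type and 429.3, 365.9, 297.1 and 476.9 FPKM in knockout. Libraries of the genotypes overlapped for both genes, and neither passed the test (log2 fold change -0.12, limma adjusted p = 0.585, and -0.18, limma adjusted p = 0.485). The Eif1 to Eif1b ratio lay between 0.80 and 1.23 in wild type and between 0.82 and 1.29 in knockout.

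eIF1A, which with eIF1 opens the mRNA channel for scanning, is encoded by Eif1ax on the X chromosome (159372178 to 159389928, GRCm38) and by the autosomal Eif1a. Eif1ax had 144.3, 172.8, 97.4 and 143.2 FPKM in wild-type replicates 1 to 4 and 62.7, 105.7, 67.0 and 78.5 FPKM in knockout replicates 1 to 4. It was lower in knockout, with knockout replicate 2 above the lowest wild-type library (replicate 3). The fall was 1.78-fold by mean FPKM, with a log2 fold change of -0.82 ± 0.23 (SE; limma adjusted p = 0.0137). It was -1.53 with the GC correction, and under median-of-ratios scaling the call was lost.

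Eif1a was the rarer copy, at 9.82, 7.10, 12.6 and 10.6 FPKM in wild type and 26.4, 17.8, 24.1 and 27.3 FPKM in knockout. Every knockout library was above every wild-type library. It rose 2.39-fold by mean FPKM (log2 fold change 1.18 ± 0.23 SE, limma adjusted p = 0.00227), though after the GC correction the value was 0.49 with limma adjusted p = 0.112. The Eif1a to Eif1ax ratio was 0.041 to 0.129 in wild-type libraries and 0.169 to 0.421 in knockout libraries, without overlap. On the log2 scale it differed by 2.00, and by 2.02 after the GC correction (their transcripts have 40.0% and 39.7% GC). Their coding sequences are 85.5% identical, so some reads could be counted for the wrong copy. Eif1ad, which encodes a protein with an eIF1A-like domain, fell from 81.5 ± 16.7 to 48.2 ± 13.9 FPKM (SD, n = 4 each). Its libraries overlapped, and its call ended under median-of-ratios scaling and without any of wild-type replicates 2, 3 and 4 or knockout replicates 3 and 4.

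The 3 subunits of eIF2 did not move together: the alpha subunit gene rose, the beta subunit gene did not pass the test and the gamma subunit gene fell. Eif2s1 encodes the alpha subunit, the target of the eIF2 kinases. It lies on chromosome 12 from 78861819 to 78887010. Its libraries held 40.9, 37.0, 16.4 and 28.8 FPKM in wild type and 94.3, 111.3, 57.9 and 97.0 FPKM in knockout. The genotypes did not overlap, and wild-type replicate 3 and knockout replicate 3 were the lowest of their groups. It rose 2.93-fold by mean FPKM (log2 fold change 1.56 ± 0.30 SE, limma adjusted p = 0.00192; 0.92 and limma adjusted p = 0.0338 after the GC correction). Eif2s2, the beta subunit gene, had 59.3, 53.4, 52.7 and 52.5 FPKM in wild type and 58.4, 49.1, 72.5 and 60.5 FPKM in knockout. These values overlap (log2 fold change 0.13, limma adjusted p = 0.574).

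Eif2s3x, the X-linked gene for the gamma subunit that holds GTP and the initiator tRNA (X chromosome, 94188707 to 94212862), had 39.0, 34.9, 25.2 and 22.8 FPKM in wild-type replicates 1 to 4 and 14.8, 18.3, 14.2 and 10.8 FPKM in knockout replicates 1 to 4. Again the genotypes did not overlap, and here knockout was the lower. The fall was 2.09-fold by mean FPKM, with a log2 fold change of -1.01 ± 0.24 (SE; limma adjusted p = 0.0065), and -1.41 after the GC correction. Eif2s3y, its copy on the Y chromosome, was listed at 0 in all 8 libraries, as were the Y-linked Ddx3y and Uty. In wild type Eif2s1 and Eif2s3x were at similar mean levels, 30.8 ± 10.8 and 30.4 ± 7.70 FPKM, and in knockout they were at 90.1 ± 22.7 and 14.5 ± 3.11 FPKM (SD, n = 4 each).

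Many mRNAs of the translation machinery start with a C followed by a run of pyrimidines, the terminal oligopyrimidine motif through which mTOR signalling and LARP1 set their translation. Promoter entries from RefSeq (GRCm38.p6) matched 42 of the 52 members, with 52 start sites. A start at C followed by at least 4 further C or T was found on the transcript strand at the starts of 2 members, Eif2s3x and Eif3f. That is 3.85% of the members' 52 starts, against 2.51% of all 32851 starts, and so near the background. Both genes were called lower, but entries covered only 7 of the 11 members called higher and 9 of the 11 called lower. A link between the run and the direction was not tested. The stretches below show 10 bases before and 20 bases from each start, with the pyrimidine run in capitals. Eif2s1, another eIF2 subunit gene, is shown as an example without such a run. They lie at chrX:94212632-94212661 (minus strand), chr7:108934405-108934434 (plus strand) and chr12:78862062-78862091 (plus strand).
Eif2s3x: gagcattttcCTTTTCTCTCCgagcaagat
Eif3f: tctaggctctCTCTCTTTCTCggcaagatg
Eif2s1: ggttgggcgaagcgcacgctgaggagcttc
Both runs are 11 bases long. RefSeq starts are single annotated positions, so no match says only that these letters are not at the annotated start.

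Of the 5 subunits of eIF2B, which recharges eIF2 with GTP, 2 were lower and 3 did not pass. These are too few genes to set against the 25.6% of all tested genes called lower. Eif2b1, the alpha subunit gene and the most abundant of them, had 119.3, 119.0, 77.5 and 128.2 FPKM in wild type and 56.2, 83.3, 38.3 and 62.6 FPKM in knockout. Only knockout replicate 2 and wild-type replicate 3 crossed. It fell 1.85-fold by mean FPKM (log2 fold change -0.90 ± 0.25 SE, limma adjusted p = 0.0149, and -0.88 after the GC correction), and the call was lost under median-of-ratios scaling. Eif2b4, for the delta subunit, fell from 26.4 ± 7.48 to 14.8 ± 3.57 FPKM (SD, n = 4 each), but the call was lost in 12 of the 21 alternatives, and after the GC correction its log2 fold change was -0.28 against -0.77. Among single libraries, leaving out any except wild-type replicate 3 or knockout replicate 2 ended it. Eif2b2, Eif2b3 and Eif2b5 had log2 fold changes of -0.50, 0.64 and 0.06.

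None of the 4 eIF2 kinase genes passed the test. Eif2ak1, the heme-regulated kinase gene, was the highest of them at 29.95, 20.3, 19.5 and 18.4 FPKM in wild type and 19.5, 14.0, 10.4 and 18.99 FPKM in knockout (log2 fold change -0.48, limma adjusted p = 0.153). Its libraries overlapped. Eif2ak2 encodes PKR, a kinase activated by double-stranded RNA and induced by interferon, and had 0.753, 0.315, 3.52 and 0.517 FPKM in wild type and 1.67, 1.43, 8.24 and 1.19 FPKM in knockout. Replicate 3 was the highest in each genotype. The same libraries had the highest granulosa (2.21 and 4.25) and stromal (3.15 and 5.20) marker means of their genotypes. Surface epithelial (1.88 and 4.26) and erythroid (7.62 and 6.53) means were highest there too. Immune markers were highest in replicate 3 only in knockout (4.16), and endothelial markers in neither genotype. The part of other cells in the Eif2ak2 level was not tested. Eif2ak3 (PERK, the kinase of the endoplasmic reticulum) and Eif2ak4 (GCN2, the kinase that senses uncharged tRNA) had log2 fold changes of 0.30 and -0.23. Eif2ak2, Eif2ak3 and Eif2ak4 all averaged under 4 FPKM, where a log2(FPKM + 1) scale understates differences.

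Genes that act around eIF2 phosphorylation were followed in a separate list. From a list of 12 such genes 11 were in the table by symbol and 10 were tested. Of these 6 were higher (60%, against 17.7% of all tested genes) and 1 lower (10%, against 25.6%), and with the GC correction 3 were higher (30%, against 14.9%) and 0 lower (against 23.6%). Ddit3, the stress-induced factor CHOP, had 0.587, 2.70, 2.97 and 1.75 FPKM in wild type and 10.7, 13.4, 20.9 and 9.28 FPKM in knockout (log2 fold change 2.30, limma adjusted p = 0.000544). Asns, the asparagine synthetase gene that ATF4 activates, had 5.24, 6.92, 2.12 and 2.46 FPKM in wild type and 15.3, 76.0, 25.4 and 27.4 FPKM in knockout (log2 fold change 2.70, limma adjusted p = 0.00101). The lowest knockout library was above the highest wild-type library for both. Ppp1cb, a catalytic subunit of protein phosphatase 1, rose 2.70-fold by mean FPKM (limma adjusted p = 0.00258) but had a log2 fold change of 0.66 with limma adjusted p = 0.0579 after the GC correction. Atf4 itself had a log2 fold change of 0.85 (limma adjusted p = 0.00643), and 1.16 after the GC correction. Chac1, too low to be tested, went the other way, with 0, 1.17, 1.74 and 6.02 FPKM in wild type and 0, 0, 0.154 and 0 FPKM in knockout. The tested gene that fell was Trib3, which averaged 1.96 ± 0.999 FPKM in wild type and 0.477 ± 0.67 FPKM in knockout (SD, n = 4 each). Its call ended when any library other than replicate 3 of either genotype was left out. The list then held 0 lower genes without wild-type replicate 2 or 4 and without knockout replicate 1, 2 or 4, and it held 2 without knockout replicate 3.

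Eif2a and Eif2d encode factors that can deliver the initiator tRNA without eIF2. Eif2a was at 12.3, 9.64, 7.34 and 6.44 FPKM in wild-type replicates 1 to 4 and at 16.0, 16.4, 14.2 and 18.0 FPKM in knockout replicates 1 to 4. The genotypes did not overlap, and the gene rose 1.81-fold by mean FPKM (log2 fold change 0.82, limma adjusted p = 0.0171). That call ended after the GC correction (0.38, limma adjusted p = 0.206), without wild-type replicate 4 and without the 3 libraries rich in somatic markers. Eif2d had a log2 fold change of 0.11 and did not pass.

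Subunits of eIF3, the largest initiation factor and the platform on which the other factors assemble, went both ways. Of 14 genes 13 were tested, of which 4 were higher, 2 lower and 7 did not pass. With the GC correction 3 were higher and 1 lower. Of all tested genes 17.7% were higher and 25.6% lower, and 14.9% and 23.6% with the GC correction. Counts from 13 genes are too small to be set apart from these shares. Their log2 fold changes had a median of -0.04, or 0.12 with the GC correction applied. The Eif3e subunit helps recruit mRNA and lies at the edge of the complex, and the gene (chromosome 15, 43250058 to 43282719) had 31.2, 32.5, 21.8 and 16.5 FPKM in wild type and 70.1, 55.8, 70.7 and 86.1 FPKM in knockout. The highest wild-type library was below the lowest knockout library by a wide gap. The rise was 2.77-fold by mean FPKM (log2 fold change 1.47 ± 0.24 SE, limma adjusted p = 0.000803). With the GC correction it was 0.80 and limma adjusted p = 0.0131.

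Eif3i, a core subunit gene with a WD-repeat fold, rose from 39.4 ± 3.70 to 66.6 ± 14.5 FPKM (SD, n = 4 each) with a log2 fold change of 0.72, and 0.96 after the GC correction. It was the only member called higher with a transcript GC content over 45%, namely 52.9%. Eif3a, the largest subunit gene, had 32.3, 25.7, 34.8 and 31.4 FPKM in wild type and 40.4, 45.6, 45.5 and 50.5 FPKM in knockout. Though the genotypes did not overlap, the call of Eif3a (log2 fold change 0.54, limma adjusted p = 0.0292) was lost in 9 of 21 alternatives, among them the GC correction (0.16), quantile scaling and leaving out any of wild-type replicates 1, 2 and 4 and knockout replicates 2 and 4.

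Eif3j1, whose protein is a loosely bound subunit near the decoding centre, had 6.97, 5.85, 7.38 and 7.63 FPKM in wild type and 13.3, 11.4, 15.9 and 18.9 FPKM in knockout. Eif3j2, a copy that was too low to be tested, had 0.387, 0.381, 0.398 and 0.404 and 1.22, 0.896, 1.13 and 1.98 FPKM. Knockout was higher in each library for both, but their annotated coding sequences are identical over 786 aligned bases. Reads from that stretch cannot be told apart by sequence, and whether they were counted for either gene or left out is not given. Other parts of the transcripts were not compared. Eif3j1 rose 2.14-fold by mean FPKM (limma adjusted p = 0.00543), with a log2 fold change of 0.98, and 0.46 with limma adjusted p = 0.119 after the GC correction.

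The eIF3 genes that fell were Eif3f and Eif3k. Eif3f, a subunit that docks kinases such as mTOR, had 54.1, 62.4, 64.7 and 45.9 FPKM in wild type and 27.0, 25.7, 40.0 and 29.4 FPKM in knockout. No library overlapped, and the gene fell 1.86-fold by mean FPKM (log2 fold change -0.88 ± 0.20 SE, limma adjusted p = 0.00511, and -0.86 after the GC correction). Eif3k, a small peripheral subunit, had 222.2, 213.0, 157.9 and 167.5 FPKM in wild type and 109.2, 145.1, 81.8 and 92.2 FPKM in knockout. Its highest knockout library (replicate 2) was under its lowest wild-type library, and its log2 fold change was -0.84 (limma adjusted p = 0.00842), or -0.55 with limma adjusted p = 0.0565 after the GC correction.

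Eif3g, the most abundant eIF3 gene, had 319.4, 285.7, 238.0 and 272.9 FPKM in wild type and 220.5, 305.1, 162.7 and 231.8 FPKM in knockout, which overlap (log2 fold change -0.30, limma adjusted p = 0.248). The remaining subunit genes Eif3b, Eif3c, Eif3d, Eif3h, Eif3l and Eif3m had log2 fold changes of -0.33, -0.16, 0.42, -0.09, -0.04 and 0.36 and did not pass. Eif3d passed upward after the GC correction (0.76, limma adjusted p = 0.0325). Among tested subunit genes, wild-type FPKM ran from 6.96 ± 0.784 for Eif3j1 to 279.0 ± 33.6 for Eif3g (SD, n = 4 each). The Eif3j1 value depends on how reads shared with Eif3j2 were counted, and Eif3d was next lowest at 16.7 ± 3.33 FPKM. FPKM divides by annotated exon length (5830 bases for Eif3j1, 1984 for Eif3g), so levels of different genes compare only roughly.

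Of the 3 helicase genes named eIF4A, 1 was called, Eif4a2, which was higher in knockout. Eif4a2 (chromosome 16, 23107444 to 23114136) had 76.7, 39.8, 33.6 and 29.9 FPKM in wild-type replicates 1 to 4 and 243.9, 140.9, 182.4 and 291.2 FPKM in knockout replicates 1 to 4. All knockout libraries were above all wild-type libraries, and wild-type replicate 1 was the highest of its group. The gene rose 4.77-fold by mean FPKM, from 45.0 ± 21.5 to 214.6 ± 66.3 FPKM (SD, n = 4 each), with a log2 fold change of 2.28 ± 0.31 (SE; limma adjusted p = 0.000251). After the GC correction the log2 fold change was 1.60 (limma adjusted p = 0.00127). Among members by mean FPKM it was in place 21 in wild type and in place 5 in knockout.

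Eif4a1, which encodes the other cytoplasmic eIF4A (78.4% identical over 1081 aligned coding bases), had 168.1, 146.3, 91.8 and 145.5 FPKM in wild type and 68.5, 144.6, 89.0 and 86.1 FPKM in knockout. The genotypes overlapped through knockout replicate 2 and wild-type replicate 3 (log2 fold change -0.52, limma adjusted p = 0.126). Eif4a1 exceeded Eif4a2 by 2.19 to 4.86 times in the wild-type libraries. In knockout the ratio was 0.28 to 1.03, with Eif4a2 the higher in all libraries except replicate 2. On the log2 scale the ratio differed by -2.80 between genotypes and by -2.22 after the GC correction. Eif4a3, whose protein sits in the exon junction complex in the nucleus and does not act in eIF4F, had 146.6, 174.1, 96.1 and 129.8 FPKM in wild type and 185.6, 277.1, 144.8 and 200.1 FPKM in knockout. It did not pass (log2 fold change 0.55, limma adjusted p = 0.0836) but did after the GC correction (0.86, limma adjusted p = 0.0153).

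The 250 bases before the RefSeq starts of Eif4a1 and Eif4a2 are shown because the ratio of these paralogs did not overlap between the genotypes. They lie at chr11:69672424-69672673 (minus strand) and chr16:23107218-23107467 (plus strand) of GRCm38.p6. Capitals mark CACGTG (the E-box bound by MYC and related factors), CCGGAAG (ETS factors), AAGATGGC (YY1), CCAAT (NF-Y), TATAAA (the TATA box) and the palindromic NRF1 motif, searched on both strands. None of these 6 strings contains another.
Eif4a1: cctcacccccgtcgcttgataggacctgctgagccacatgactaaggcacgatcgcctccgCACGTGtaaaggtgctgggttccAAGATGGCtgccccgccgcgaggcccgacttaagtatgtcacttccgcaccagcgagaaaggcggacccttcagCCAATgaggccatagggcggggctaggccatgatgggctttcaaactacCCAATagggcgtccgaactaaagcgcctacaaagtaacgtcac
Eif4a2: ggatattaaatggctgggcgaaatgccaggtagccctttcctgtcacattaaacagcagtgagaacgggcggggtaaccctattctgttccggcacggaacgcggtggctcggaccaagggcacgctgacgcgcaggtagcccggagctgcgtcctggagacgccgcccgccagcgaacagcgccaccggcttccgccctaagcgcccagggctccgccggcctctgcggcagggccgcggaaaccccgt
The Eif4a1 stretch holds a CACGTG that begins 189 bases before the start, an AAGATGGC 166 bases before it and 2 CCAAT at 92 and 43 bases. In the Eif4a2 stretch none of the 6 strings occurs. Over windows from 250 bases before to 50 after the start, CACGTG occurred in 12 of the members' 52 windows (23.1%) and in 7.15% of all 32851 windows. CCGGAAG occurred in 17 (32.7%, against 8.86%), AAGATGGC in 5 (9.62%, against 2.75%) CCAAT in 14 (26.9%, against 37.4%), the NRF1 motif in 1 (1.92%, against 0.971%) and TATAAA in 4 (7.69%, against 13.6%). Windows of all genes include those of noncoding genes. A match is a string and not a shown binding site.

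The helpers of eIF4A did not pass. Eif4b and Eif4h, whose proteins stimulate the helicase, went from 42.8 ± 3.13 to 31.8 ± 7.07 FPKM and from 28.7 ± 2.57 to 21.9 ± 3.51 FPKM (SD, n = 4 each). Their log2 fold changes were -0.44 (limma adjusted p = 0.0958) and -0.39 (limma adjusted p = 0.12).

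Of the cap-binding protein genes, the rarest fell and the other two did not pass. Eif4e had 97.7, 104.9, 48.2 and 71.5 FPKM in wild type and 102.0, 103.8, 66.8 and 96.0 FPKM in knockout. Eif4e2, whose protein 4EHP binds caps without recruiting eIF4G and so represses, had 23.5, 26.4, 14.8 and 17.7 FPKM in wild type and 21.0, 25.2, 19.9 and 18.7 FPKM in knockout. Both overlapped between genotypes and did not pass (log2 fold change 0.23, limma adjusted p = 0.493, and 0.07, limma adjusted p = 0.833). Eif4e3, another cap-binding paralog, was at 6.09, 4.32, 6.97 and 8.17 FPKM in wild type and 3.30, 3.47, 2.40 and 2.58 FPKM in knockout. Its knockout libraries were all below its wild-type libraries, and it fell 2.17-fold by mean FPKM (log2 fold change -0.89 ± 0.27 SE, limma adjusted p = 0.0197). The call was lost without wild-type replicate 4, without the 3 libraries rich in somatic markers, under quantile scaling and in a limma-voom fit of recovered reads. The Eif4e to Eif4e3 ratio was 6.91 to 24.3 in wild type and 27.8 to 37.2 in knockout.

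The scaffold genes of eIF4G differed in direction. Eif4g1 (chromosome 16, 20668313 to 20692884), the main scaffold, had 30.5, 42.5, 52.5 and 51.5 FPKM in wild-type replicates 1 to 4 and 11.4, 21.9, 20.3 and 15.4 FPKM in knockout replicates 1 to 4. No knockout library reached the lowest wild-type library. It fell 2.56-fold by mean FPKM (log2 fold change -1.32 ± 0.26 SE, limma adjusted p = 0.00208, and -1.01 after the GC correction). Eif4g2, whose protein DAP5 lacks the eIF4E-binding part and drives cap-independent initiation, had 58.5, 46.2, 46.8 and 38.9 FPKM in wild type and 76.2, 56.9, 63.0 and 92.9 FPKM in knockout. These overlap at wild-type replicate 1. Its call as higher (log2 fold change 0.58, limma adjusted p = 0.0419) was lost in 10 of 21 alternatives, among them the GC correction (0.11) and leaving out any of wild-type replicates 2, 3 and 4 and knockout replicates 1 and 4.

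Eif4g3 had 19.4, 19.6, 23.0 and 22.4 FPKM in wild type and 16.4, 12.6, 17.5 and 15.2 FPKM in knockout. The knockout libraries were all lower, but the test was not passed (log2 fold change -0.43, limma adjusted p = 0.0905). The ratio of Eif4g1 to Eif4g2 was 0.52 to 1.32 in wild type and 0.15 to 0.38 in knockout. Its log2 value differed by -1.90, and by -1.12 after the GC correction.

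Over the 8 paralog pairs with both genes tested, the ratios of 4 did not overlap between genotypes (Eif1a to Eif1ax, Eif4a1 to Eif4a2, Eif4e to Eif4e3 and Eif4g1 to Eif4g2). Each of these 4 had the smallest p that 70 splits of 4 against 4 libraries allow in an exact two-sided permutation test, 0.0286, and a Benjamini-Hochberg adjusted p = 0.0571 over the 8 pairs. With 4 pairs at the smallest p, none can pass a threshold of 0.05, so the test decides nothing for a single pair. The ratio of Eif4g1 to Eif4g3 overlapped (difference -0.88 on the log2 scale, exact permutation adjusted p = 0.0914). For Eif1 to Eif1b, Eif4e to Eif4e2 and Eif5a to Eif5a2 the differences were 0.06, 0.17 and -0.34, with exact permutation adjusted p of 0.80, 0.327 and 0.190. After the GC correction the ratios of 4 pairs again did not overlap, but only 2 of them were among those above (Eif1a to Eif1ax and Eif4a1 to Eif4a2). The others were then Eif4e to Eif4e2 (-0.48 on the log2 scale) and Eif5a to Eif5a2 (0.81), whose sign had turned, while Eif4e to Eif4e3 and Eif4g1 to Eif4g2 overlapped.

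**Figure D3:**
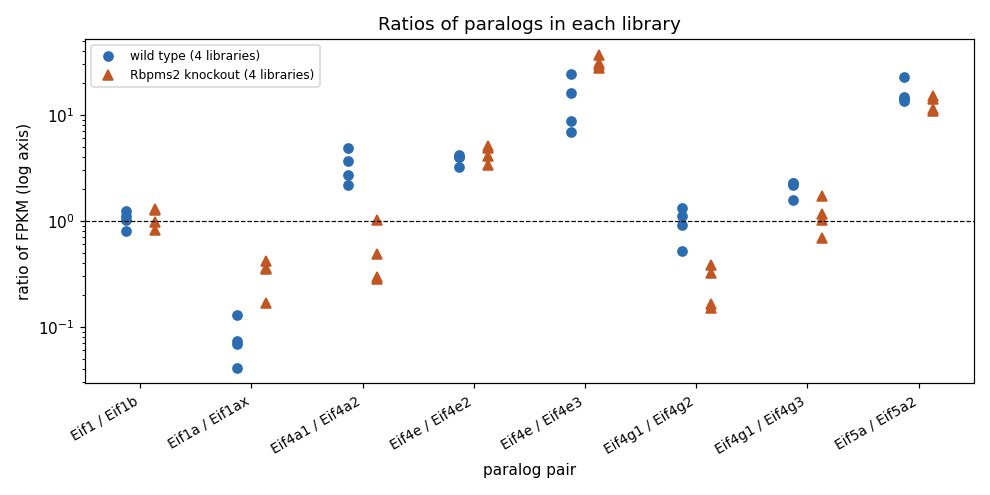
Ratio of FPKM between paralogs (log axis) in each of 4 wild-type libraries (circles) and 4 Rbpms2 knockout libraries (triangles) for the 8 pairs with both genes tested. The Eif4a1 to Eif4a2 ratio lies at 2.19 to 4.86 in wild type and at 0.28 to 1.03 in knockout, and the ratios of 4 pairs do not overlap.

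Of the eIF4E-binding proteins among the members, Eif4ebp2 had 5.21, 5.71, 18.3 and 11.2 FPKM in wild type and 2.93, 9.01, 7.65 and 3.07 FPKM in knockout. Wild-type replicate 3 was the highest, the genotypes overlapped, and the test was not passed (log2 fold change -0.71, limma adjusted p = 0.217). Eif4ebp3 had 2 reads over the wild-type libraries and 0 over the knockout libraries, too few for any comparison. The related genes outside the members moved further. Eif4ebp1, another eIF4E-binding protein gene, had 125.4, 161.1, 145.3 and 190.2 FPKM in wild type and 5.45, 78.2, 17.3 and 9.67 FPKM in knockout, with knockout replicate 2 far above the other 3. Eif4e1b, an eIF4E relative expressed in oocytes, had 7.76, 10.2, 6.88 and 47.9 FPKM in wild type and was listed at 0 in each knockout library.

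Those genes belong to a list of 26 eIF4E partners and mRNA recruitment genes, 25 of them tested. Of these 4 rose (16%, against 17.7% of all tested genes) and 9 fell (36%, against 25.6%). With the GC correction 1 rose (4%, against 14.9%) and 10 fell (40%, against 23.6%). Pabpc4, a cytoplasmic poly(A)-binding protein gene, had 69.2, 58.8, 41.1 and 66.9 FPKM in wild type and 0.722, 3.09, 2.31 and 1.38 FPKM in knockout (log2 fold change -4.43, limma adjusted p = 3.06e-06). Its relative Pabpc1, which bridges the mRNA tail to eIF4G, had 90.1, 124.8, 102.8 and 104.4 FPKM in wild type and 279.8, 260.8, 263.3 and 322.3 FPKM in knockout (log2 fold change 1.41, limma adjusted p = 8.46e-05). The 2 poly(A)-binding protein genes thus moved in opposite directions, without overlap between the genotypes in either. Eif4enif1, whose protein 4E-T represses and localises eIF4E-bound mRNAs, fell 2.96-fold by mean FPKM (limma adjusted p = 0.00135). Paip1, a PABP partner that also binds eIF4A, and Dhx36, a helicase, rose with log2 fold changes of 0.79 (limma adjusted p = 0.00746) and 0.93 (limma adjusted p = 0.00828), which were 0.09 and 0.24 after the GC correction and then not called.

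The genes for the last steps of initiation, eIF5 and eIF5B, were both higher before the GC correction. Eif5, the GTPase-activating protein of eIF2, had 98.8, 90.8, 82.6 and 75.7 FPKM in wild type and 165.8, 138.8, 121.2 and 240.5 FPKM in knockout. Eif5b, the GTPase that joins the ribosomal subunits, had 15.8, 16.1, 25.8 and 18.8 FPKM in wild type and 33.4, 30.8, 45.4 and 39.4 FPKM in knockout. For both genes the knockout libraries were all above the wild-type libraries. They rose 1.92-fold and 1.95-fold by mean FPKM (log2 fold change 0.89, limma adjusted p = 0.00774, and 0.94, limma adjusted p = 0.00567). After the GC correction the values were 0.31 (limma adjusted p = 0.219) and 0.50 (limma adjusted p = 0.0949), so both calls ended.

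eIF5A, which carries the modified lysine hypusine and acts mainly in elongation and termination, is encoded by the most abundant member. Eif5a had 522.0, 563.2, 418.9 and 548.4 FPKM in wild type and 255.2, 433.8, 259.6 and 321.0 FPKM in knockout. Knockout replicate 2 was just above wild-type replicate 3, and the other knockout libraries were lower. The fall was 1.62-fold by mean FPKM (log2 fold change -0.72 ± 0.20 SE, limma adjusted p = 0.0149), and the call ended after the GC correction (-0.35, limma adjusted p = 0.18) and under median-of-ratios scaling. Eif5a2, its paralog, had 36.9, 38.0, 30.8 and 24.0 FPKM in wild type and 17.0, 37.8, 18.5 and 29.2 FPKM in knockout. It overlapped and did not pass (log2 fold change -0.38, limma adjusted p = 0.287), but did after the GC correction (-1.15, limma adjusted p = 0.00853). The transcripts of the pair have 55.0% and 38.8% GC, and the log2 ratio of Eif5a to Eif5a2 differed by -0.34 between genotypes before and by 0.81 after the correction.

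Eif6, whose protein keeps the large ribosomal subunit from joining too early, had 94.7, 86.8, 78.9 and 82.7 FPKM in wild type and 40.4, 96.1, 28.5 and 32.0 FPKM in knockout. Knockout replicate 2 was above every wild-type library and the other 3 were below them. The call as lower (log2 fold change -0.96 ± 0.33 SE, limma adjusted p = 0.0352) was lost in 11 of 21 alternatives. It was kept without knockout replicate 2 and lost when any other library was left out, and after the GC correction the log2 fold change was -0.40.

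**Figure D4:**
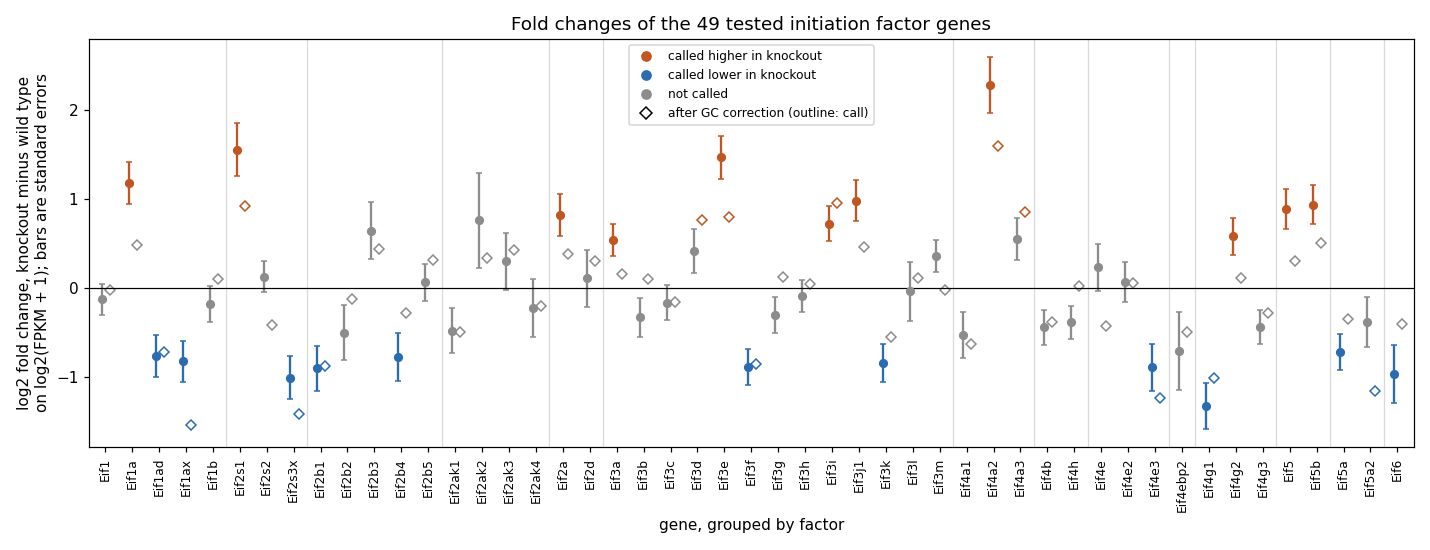
Log2 fold change of the 49 tested members (knockout minus wild type on log2(FPKM + 1)), grouped by factor, with standard errors (filled circles) and the value after the GC correction (open diamonds), coloured by call. Before the correction the values run from -1.32 (Eif4g1) to 2.28 (Eif4a2), after it from -1.53 (Eif1ax) to 1.60 (Eif4a2), and 6 members are called higher and 8 lower after the correction.

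The neighbouring steps of translation also held changes in both directions. Of 9 genes for reinitiation, recycling and eIF5 mimicry, 3 rose (33.3%, against 17.7% of all tested genes) and 0 fell (against 25.6%). After the GC correction 0 rose (against 14.9% of all genes) and 1 fell (11.1%, against 23.6%). In the uncorrected fit 1 fell when knockout replicate 3 was left out. Bzw1, an eIF5 mimic, rose from 106.2 ± 22.1 to 240.6 ± 61.3 FPKM, Denr, a reinitiation factor, from 59.4 ± 3.90 to 109.8 ± 21.8 FPKM, and Abce1, the ribosome recycling factor, from 19.03 ± 3.75 to 49.7 ± 19.1 FPKM (SD, n = 4 each). Limma adjusted p was 0.00233, 0.00312 and 0.00367, and after the GC correction 0.0600, 0.110 and 0.0751. Of 14 tested elongation genes 2 rose and 2 fell (14.3% each, against 17.7% and 25.6%). After the GC correction 2 rose (14.3%, against 14.9%) and 3 fell (21.4%, against 23.6%). Eef1a1, which delivers tRNAs to the ribosome, and Hbs1l, a ribosome rescue factor, were higher (log2 fold change 0.75 and 1.12), and Eef2k, the kinase that inhibits elongation, and Eef1d, an exchange factor subunit, were lower (-2.21 and -1.02).

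All 4 genes listed for termination were tested, among them Upf1, which is not a release factor gene. Of these 1 rose and 2 fell, Upf1 being 1 of those that fell (1 and 3 after the GC correction). They are too few to set against the shares of all genes (17.7% and 25.6%, or 14.9% and 23.6% after the GC correction). Etf1, the release factor eRF1, had 18.3, 30.6, 34.1 and 31.2 FPKM in wild type and 80.7, 69.2, 56.2 and 76.8 FPKM in knockout (log2 fold change 1.30, limma adjusted p = 0.00107). Gspt2, one of the genes for its partner eRF3, had 15.7, 15.1, 11.1 and 15.9 FPKM in wild type and 2.85, 4.67, 3.60 and 2.63 FPKM in knockout (log2 fold change -1.81, limma adjusted p = 0.00024). Upf1, a helicase of nonsense-mediated decay, fell 7.02-fold by mean FPKM (limma adjusted p = 0.00011). In each of these 3 genes all wild-type libraries lay on one side of all knockout libraries.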

How the data were processed

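Transcript levels were measured by RNA sequencing of amplified RNA in 8 libraries, 4 wild type and 4 Rbpms2 knockout. The values are FPKM per gene as deposited by the authors in a table of 21959 genes, and per the submitters' processing notes cutadapt, HISAT2 and HTSeq were used with the mouse build GRCm38 (mm10). Which versions and which annotation release they used is not given in the sources used here, and a growth note in the labels speaks of a microarray. Reads were recovered from the steps of FPKM times exon length (GENCODE M21), where 97.4% to 97.6% of the values above 0 were within 0.02 of a whole read. Pairs of libraries of a genotype differed by more than sampling noise (lowest chi-square per degree of freedom 33.6).

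Genes with at least 1 FPKM in at least 4 libraries entered a fit with limma 3.58.1 under R 4.3.3 (lmFit, then eBayes with trend) on log2(FPKM + 1), with Benjamini-Hochberg adjustment over all tested genes and a call at an adjusted p under 0.05. Fold changes on this scale understate the change of low genes, and folds by mean FPKM are ratios of group means. Paralog ratios were compared with an exact two-sided permutation test. The alternatives tried were a pseudocount of 0.1 or of 5, leaving the filter off, raising it to 5 FPKM, median-of-ratios, equal-total and quantile scaling, a replicate block, a GC correction (loess of log2 values on transcript GC in each library, span 0.5), both together, robust eBayes, leaving out each library, and leaving out 3 libraries. A limma-voom fit of recovered reads was added after seeing the data. The fitting was tested on simulated data.

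The members, gene lists and alternatives were chosen with earlier results of these data known. The motifs, the sequences printed and the coding identities (longest coding sequences, GENCODE M21) were chosen after values were seen. Values in every library were given for members called with a log2 fold change of at least 1 in size and no overlap, for the highest member of each factor and for paralogs. Up to 3 called genes with the smallest p were named for each other list and direction. Other genes named from these lists or given by library were chosen after their values were seen.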

Additional observations from a re-analysis of the deposited data

Results flagged for a closer look

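In 7 of 98 groups of 4 libraries, 1 library stood apart from the other 3 by more than Dixon's 95% critical value for 4 samples, which chance reaches in about 1 of 20 groups. Eif2ak2 did so in both genotypes, at 3.52 FPKM in wild-type replicate 3 (0.315 to 0.753 in the others) and at 8.24 FPKM in knockout replicate 3 (1.19 to 1.67 in the others). Eif2ak1 stood at 29.95 FPKM in wild-type replicate 1 (18.4 to 20.3 in the others). Eif2b2 was at 15.2 FPKM in knockout replicate 3 (37.3 to 40.0 in the others). Eif2s2 was at 59.3 FPKM in wild-type replicate 1 (52.5 to 53.4 in the others). Eif3m was at 87.1 FPKM in wild-type replicate 3 (125.0 to 126.8 in the others). Eif4h was at 27.1 FPKM in knockout replicate 1 (19.8 to 20.7 in the others). None of these genes was called between genotypes.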

How the results depend on the processing

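No called member or listed gene changed direction under any alternative run. After the GC correction 6 members were higher, and 5 with the replicate block added. Under median-of-ratios scaling 5 members were lower and the median log2 fold change of the members was 0.0356, against 0.0084 over all tested genes. Among eIF4E partners 1 was higher after the GC correction and 1 with the block added. For reinitiation and recycling genes the GC correction gave 0 higher and 1 lower, and 1 and 1 with the block added. For eIF2 phosphorylation genes 3 were higher after the GC correction. There 0 were lower with a pseudocount of 5, no filter, a 5 FPKM filter, median-of-ratios or quantile scaling, the replicate block, the GC correction, without the 3 libraries rich in somatic markers and in limma-voom. Of the elongation genes 1 was higher with no filter, and 1 was lower with a 5 FPKM filter, 4 with quantile scaling and 1 without the 3 libraries. The causes were not tested.

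Leaving out 1 library at a time gave 8 to 13 members higher and 7 to 12 lower, with a median of -0.18 to -0.05. Over all genes it gave 1465 to 1792 higher and 1995 to 3010 lower. For the lists, higher and lower, it gave 3 to 5 and 7 to 9 (eIF4E partners), 3 to 4 and 0 to 1 (reinitiation), 5 to 6 and 0 to 2 (eIF2 phosphorylation), 2 to 3 and 2 to 3 (elongation), and 1 and 2 (termination), and 4 to 5 paralog pairs without overlap.

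Same-numbered libraries deviated with correlations of 0.19, 0.016, 0.36 and -0.053, so the numbers were not taken as pairs. Of the wild-type libraries, only replicate 3 correlated better with the knockout library of its own number than with any other. With the replicate block 11 members were higher and 11 lower, and 2113 and 2921 of all genes. With the block and the GC correction 5 members were higher and 9 lower.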

Other observations

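Pairs of CAC separated by 3 to 12 bases, a pattern of the kind RBPMS proteins are known to bind, were counted on the transcript strand of the annotated 3′ UTRs, after values were seen. They occurred in 63.3% of 49 tested members and in 73.5% of 11093 tested genes, or 2.11 and 2.49 pairs per 1000 bases. Members called higher had 1.45 pairs per 1000 bases and members called lower 1.93, and in each direction 63.6% of 11 members had a pair. These are counts of letters and do not show binding.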
